A study of Homo sapiens with 36 samples.

Results

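Lower glycolysis is the run of cytosolic reactions that splits fructose bisphosphate, carries the triose phosphates to pyruvate and reduces pyruvate to lactate. The 10 genes described here encode its enzymes: the aldolases ALDOA and ALDOC, TPI1, GAPDH, PGK1, PGAM1, the enolases ENO1 and ENO2, PKM and LDHA. They were taken by name from a table of 21950 genes, and all 10 were found and passed the filter for testing, a mean of at least 1 FPKM over all libraries. FPKM corrects the number of sequenced fragments for the length of the transcript and the size of the library. The libraries came from K562, a human erythroleukemia cell line, grown in DMEM in plates in incubators of 21%, 5% or 1% oxygen and collected after 6 h, 24 h, 3 d or 6 d, with a passage at 3 d. Each of the 12 combinations of oxygen and time had 3 libraries, 36 in all, and no group carried a genetic change or an added drug. All cells were of 1 line, the labels do not say whether replicates were separate cultures, and oxygen level and incubator cannot be told apart. The p-values therefore measure only the spread between these libraries, which may be technical. The groups in 21% oxygen, the level of room air, are the controls.

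Glycolysis yields ATP without oxygen, and the last step of the run, pyruvate to lactate, regenerates the NAD+ that the GAPDH step uses up. In many cell types the genes of these enzymes are transcribed more strongly in low oxygen, when hypoxia-inducible factors, stabilised because oxygen-dependent prolyl hydroxylases lose activity, bind DNA elements whose core contains ACGTG or GCGTG. LDHA, PGK1, ENO1 and ALDOA are among the textbook targets of these factors.

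The stretches around the transcription starts of 5 of the genes show where ACGTG stands. The RefSeq table of promoters (build GRCh38.p14) has windows of 300 bases, from 250 before to 50 after a start, and holds 14 windows for the 10 genes. For 6 genes a window contains the annotated start of the transcript that carried most of the gene's FPKM here, and ACGTG was present on either strand in that window in 4 of the 6: LDHA, PGK1, ALDOA and ENO2, but not in PKM or TPI1. The other 4 genes had no window at that start and are left out of this count. For scale, 21.4% of all 35116 windows hold ACGTG on either strand. GCGTG, present in 36.5% of all windows, was in those of LDHA, PGK1 and PKM. The windows are given 5′ to 3′ on the gene's strand, with each match to ACGTG in capitals and GCGTG left in lower case. A match on the other strand reads CACGT, and CACGTG is a match on both strands that overlap by 4 bases. The first LDHA window (chr11:18394313-18394612, plus strand) has 5 matches, the largest number among the 14, of which the pairs at 185 and 184 and at 87 and 86 bases before the start each form 1 CACGTG. The second LDHA window (chr11:18396101-18396400, plus strand), at the start of a minor transcript described with LDHA below, has no ACGTG and 1 GCGTG. PGK1 (chrX:78103998-78104297, plus strand) has 3 matches, ALDOA (chr16:30065510-30065809, plus strand) has 1 and ENO2 (chr12:6914330-6914629, plus strand) has 1. TPI1 (chr12:6867281-6867580, plus strand) is shown as a window with neither, while the second TPI1 window, at the start of a minor transcript and not shown, has 1 of each.
LDHA, upstream start: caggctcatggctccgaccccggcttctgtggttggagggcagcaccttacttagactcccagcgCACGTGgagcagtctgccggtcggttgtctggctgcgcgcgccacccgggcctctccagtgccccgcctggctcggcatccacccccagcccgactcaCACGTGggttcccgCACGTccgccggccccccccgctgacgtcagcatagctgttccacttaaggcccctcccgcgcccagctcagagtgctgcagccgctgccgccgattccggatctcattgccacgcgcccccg
LDHA, downstream start: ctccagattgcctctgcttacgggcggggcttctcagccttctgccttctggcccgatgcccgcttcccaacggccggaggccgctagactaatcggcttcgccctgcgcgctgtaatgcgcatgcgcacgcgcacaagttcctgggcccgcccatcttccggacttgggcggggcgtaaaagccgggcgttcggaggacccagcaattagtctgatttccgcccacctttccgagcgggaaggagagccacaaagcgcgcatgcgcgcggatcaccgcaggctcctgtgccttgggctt
PGK1: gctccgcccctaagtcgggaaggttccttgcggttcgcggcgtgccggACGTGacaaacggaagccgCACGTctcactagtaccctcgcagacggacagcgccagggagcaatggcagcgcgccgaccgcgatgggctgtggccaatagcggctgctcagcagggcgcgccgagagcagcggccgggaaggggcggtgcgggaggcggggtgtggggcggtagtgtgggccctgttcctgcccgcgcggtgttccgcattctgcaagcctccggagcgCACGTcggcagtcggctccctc
ALDOA: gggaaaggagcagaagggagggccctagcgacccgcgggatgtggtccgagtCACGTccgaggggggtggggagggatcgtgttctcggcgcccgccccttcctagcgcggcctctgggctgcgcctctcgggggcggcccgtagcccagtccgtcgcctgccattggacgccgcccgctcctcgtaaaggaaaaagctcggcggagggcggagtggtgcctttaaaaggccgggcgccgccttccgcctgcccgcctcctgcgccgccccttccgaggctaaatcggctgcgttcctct
ENO2: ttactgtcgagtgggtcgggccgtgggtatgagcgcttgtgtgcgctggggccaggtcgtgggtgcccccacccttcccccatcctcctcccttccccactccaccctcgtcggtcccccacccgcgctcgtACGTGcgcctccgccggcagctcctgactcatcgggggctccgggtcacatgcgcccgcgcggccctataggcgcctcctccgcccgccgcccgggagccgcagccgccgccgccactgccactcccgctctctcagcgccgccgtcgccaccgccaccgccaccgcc
TPI1: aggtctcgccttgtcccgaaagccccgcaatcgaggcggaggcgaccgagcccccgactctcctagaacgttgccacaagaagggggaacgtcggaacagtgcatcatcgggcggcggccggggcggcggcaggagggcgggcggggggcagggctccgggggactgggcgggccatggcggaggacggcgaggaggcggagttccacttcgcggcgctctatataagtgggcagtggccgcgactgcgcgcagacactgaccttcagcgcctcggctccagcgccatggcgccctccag
A match is a description of the sequence and is neither a measured binding site nor a cause of the expression values that follow.

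The tables hold no counts, so depth in reads is unknown. The value of 1 fragment, read from weakly expressed genes, gave relative depths from 0.418 to 1.51 in 35 libraries. The remaining library, replicate 3 of the 1% group of 3 d, detected 7220 genes against 14512 to 19543 elsewhere, and 435 of the 3699 genes with a median over 20 FPKM in the other 35 were listed at 0 in it, against at most 7 in any of those. For each gene, the difference of 1% from 21% oxygen at 3 d is given with and without this shallow library. Other results mostly include it. All groups were tested in 1 model. Leaving this library out also raised the share of all genes called in most comparisons, also in those that do not use it. Replicate 3 of 21% oxygen at 24 h had a summed FPKM of 1171415 against 780267 and 900700 in its fellow replicates, and it was the highest of its group for 9 of the 10 genes, all but ENO2. The K562 markers, from 9.8 FPKM (TAL1) to 5106 FPKM on average, were all present. Of 10 markers of other cell types, EPCAM lay between 31.45 and 138.8 FPKM, and PTPRC averaged 11.9 and COL1A2 4.26 FPKM. Averaged over times EPCAM was lower by 0.35 in 1% and by 0.32 in 5% oxygen on the log2 scale (adjusted p = 0.00187 and 0.0043), and COL1A2 was higher by 0.27 in 5% (0.00203) and did not pass in 1% (0.61), nor did PTPRC in either (0.497 and 0.895). The other 7 were under 1 FPKM on average, and their summed FPKM was 2.18 to 3.03 in 21%, 3.59 to 6.08 in 5% and 1.42 to 6.61 in 1% oxygen at 3 d and 6 d. The part of these markers in the results was not tested. In cultured cells, as in any bulk sample, a change in the mix of cell states and a change in RNA per cell cannot be told apart.

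The genes spanned a wide range of levels. Over all 36 libraries, GAPDH averaged 5056 FPKM, rank 10 of all genes. ALDOA averaged 2906, LDHA 2160, ENO1 1796, TPI1 812.5, PGK1 691.3, PKM 302.5, ALDOC 150.5 and PGAM1 132.1 FPKM. ENO2 averaged 15.5 FPKM, rank 4379. Most neighbours in this order, ALDOC and PGAM1 among them, had ranges across libraries that overlapped. The order rests on means: by median, LDHA at 1315 FPKM was below ENO1 at 1805. FPKM is scaled for length, so these levels can be set beside each other.

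All 10 genes were higher in low oxygen at 3 d and 6 d, and 1% oxygen was ahead of 5% at 24 h. At 6 h none passed the test. At 24 h, 7 had risen in 1% oxygen, while in 5% oxygen 2 passed, ALDOC higher and ENO1 lower, the latter turning with the scaling. At 3 d and 6 d all 10 were higher than in 21% oxygen at both low levels, from 1.14-fold (ENO1 in 1% oxygen at 3 d) to 7.5-fold (ENO2 in 1% oxygen at 3 d, a value that rests in part on the shallow library). The 10 genes together made up 1.11% to 1.35% of all FPKM in 21% oxygen by group mean. They reached 2.68% ± 0.255 (SD, n = 3) in 5% and 3.03% ± 0.199 (SD, n = 3) in 1% oxygen at 3 d. Differences below are on the scale of log2(FPKM + 1), from a limma model across all genes with Benjamini-Hochberg adjustment over 10625 genes, and a gene is said to have risen or fallen where its adjusted p was under 0.05. The comparisons of 5% and 1% with 21% oxygen share the same 21% libraries.

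**Figure D1:**
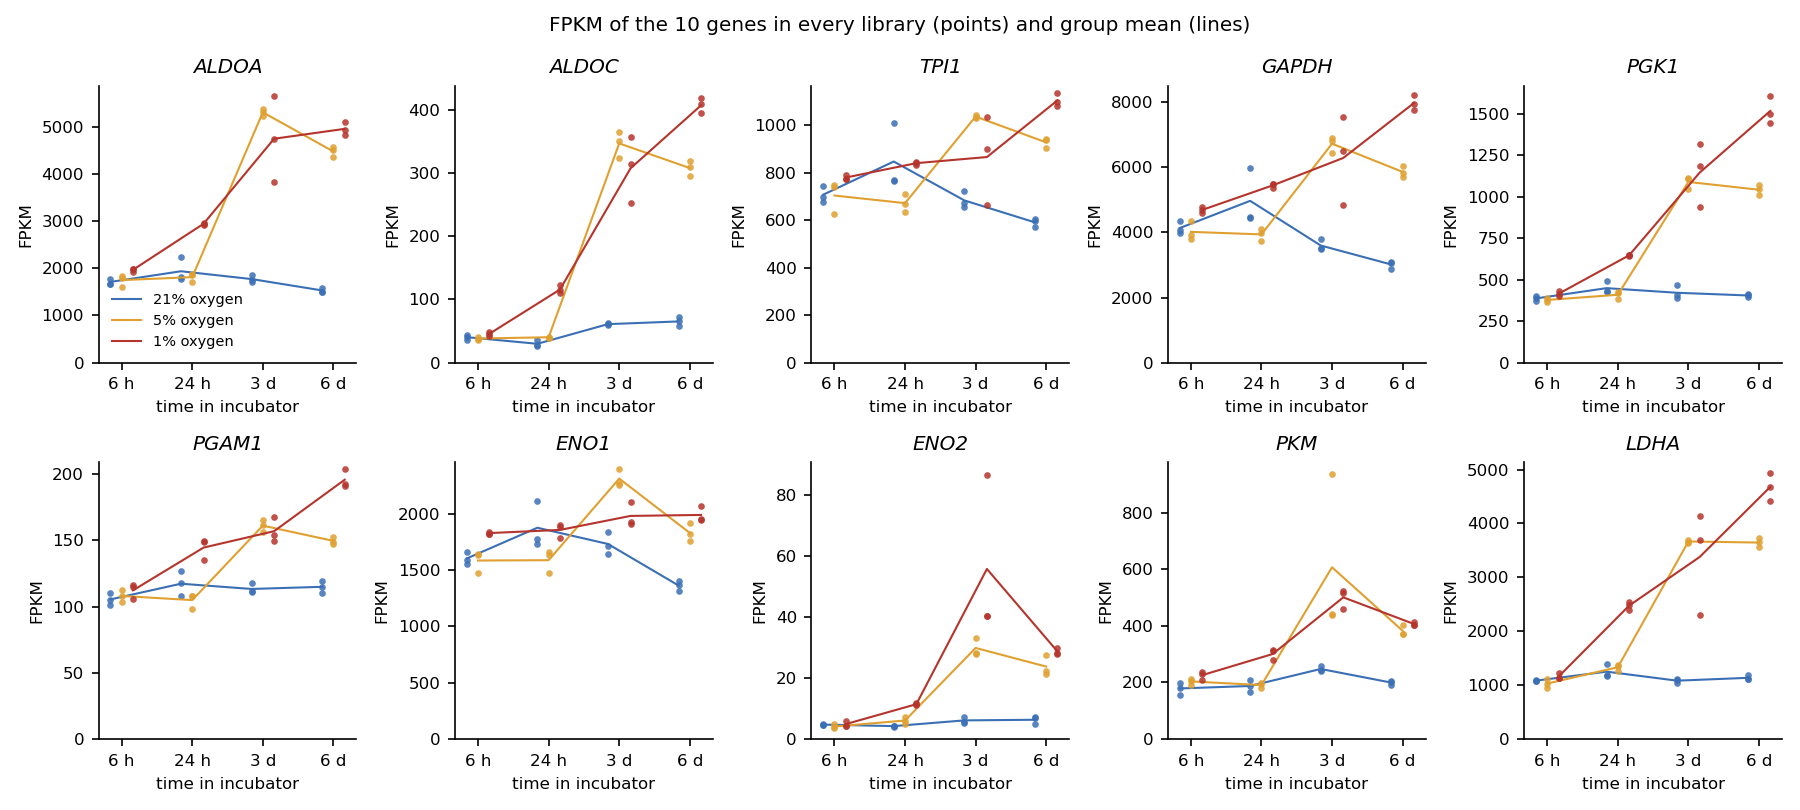
FPKM (vertical axis, from 0) of the 10 genes against time in the incubator, with a point for each of the 36 libraries and lines through group means, in blue for 21%, yellow for 5% and red for 1% oxygen. At 3 d and 6 d the points of 5% and 1% oxygen stand above those of 21%, apart from the shallow library for TPI1. At 24 h the points of 1% oxygen stand above those of 5% for every gene.

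The aldolases split fructose bisphosphate into the triose phosphates. ALDOA, the main form in K562, was 1672, 1781 and 1673 FPKM at 6 h in 21% oxygen and 1506, 1587 and 1493 at 6 d. ALDOA in 5% oxygen was 1604, 1841 and 1797 at 6 h, 1875, 1852 and 1705 at 24 h, 5299, 5381 and 5226 at 3 d and 4498, 4564 and 4356 at 6 d. ALDOA in 1% oxygen was 1988, 1987 and 1920 at 6 h, 2954, 2943 and 2925 at 24 h, 4744, 5652 and 3832 at 3 d and 4931, 4831 and 5094 at 6 d. The 5% libraries of 24 h were within the range of 6 h and 24 h in 21%, those of 1% oxygen at 24 h were already above all 21% libraries, and at 3 d both low levels were far above. ALDOA rose in 5% oxygen by a log2 difference of 1.58 ± 0.0913 (SE) at 3 d (3-fold, adjusted p = 2.29e-13) and 1.55 at 6 d (2.92-fold). In 1% oxygen it rose by 0.61 at 24 h (1.53-fold, adjusted p = 9.04e-05), 1.4 at 3 d (1.55 without the shallow library) and 1.7 at 6 d (3.24-fold). The 24 h call was lost in a fit of the compared groups only (adjusted p = 0.0629).

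ALDOC, the aldolase known from brain, started near 40 FPKM and had the largest rises of the 10 at most times. In 21% oxygen it was 36.2, 44.2 and 40.4 FPKM at 6 h, 26.6, 27.3 and 35.5 at 24 h, 59.1, 61.0 and 62.5 at 3 d and 58.3, 72.0 and 65.2 at 6 d. ALDOC in 5% oxygen was 35.7, 37.3 and 41.2 at 6 h, 39.7, 39.7 and 41.0 at 24 h, 324.1, 351.3 and 365.9 at 3 d and 309.1, 319.3 and 295.8 at 6 d. The 1% oxygen libraries gave ALDOC 41.9, 49.0 and 45.8 at 6 h, 114.3, 110.4 and 122.2 at 24 h, 314.3, 356.6 and 252.0 at 3 d and 409.2, 394.6 and 418.4 at 6 d. From 24 h on, no library of 1% or 5% oxygen overlapped the 21% libraries of the same time. ALDOC rose by a log2 difference of 1.93 ± 0.108 (SE) in 1% oxygen at 24 h (3.82-fold, adjusted p = 1.3e-12), by 2.3 at 3 d (2.44 without the shallow library) and by 2.63 at 6 d (6.19-fold). In 5% oxygen the difference was 0.43 at 24 h (1.35-fold, adjusted p = 0.0135, or 0.175 with the compared groups only), 2.49 at 3 d (5.62-fold) and 2.23 at 6 d (4.69-fold). ALDOC also rose with time in 21% oxygen, by 0.59 at 3 d and 0.68 at 6 d against 6 h (adjusted p = 0.00113 and 0.000136).

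TPI1, which interconverts the triose phosphates, and GAPDH, which oxidises glyceraldehyde phosphate, rose less than the aldolases. Neither had passed in 1% oxygen at 24 h, a time at which calls depended on the scaling. TPI1 was 671.7, 654.6 and 721.7 FPKM in 21% oxygen at 3 d, against 1035, 1041 and 1031 in 5% and 897.7, 1034 and 663.8 in 1% oxygen. The lowest of these 1% values, inside the 21% range, was that of the shallow library. At 6 d TPI1 was 604.8, 594.2 and 571.6 FPKM in 21%, 940.2, 935.7 and 904.7 in 5% and 1097, 1078 and 1136 in 1% oxygen, with no overlap between the levels. Its log2 differences were 0.6 (1.52-fold, adjusted p = 9.21e-05) in 5% oxygen at 3 d and 0.65 at 6 d. In 1% oxygen they were 0.32 (adjusted p = 0.0139, and 0.5 without the shallow library) at 3 d and 0.9 (1.87-fold, adjusted p = 4.16e-07) at 6 d. The 3 d call in 1% oxygen was lost when replicate 2 of either group was left out (adjusted p up to 0.13), and in a fit of the compared groups only (0.333).

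GAPDH, often used as a constant reference gene, moved in these cells with oxygen and with time. It was 3978, 4357 and 4064 FPKM in 21% oxygen at 6 h and 4470, 4457 and 5987 at 24 h. It was then 3518, 3492 and 3785 at 3 d and 3066, 3091 and 2887 at 6 d, the lowest of all groups. GAPDH in 5% oxygen was 6456, 6824 and 6905 at 3 d and 6055, 5827 and 5703 at 6 d, and in 1% oxygen 6504, 7537 and 4830 at 3 d and 7939, 7755 and 8234 at 6 d. Both low levels stood above 21% at these times without overlap. GAPDH rose by a log2 difference of 0.9 ± 0.106 (SE) in 5% oxygen at 3 d (1.87-fold, adjusted p = 2.3e-07) and 0.96 at 6 d (1.94-fold). In 1% oxygen it rose by 0.78 at 3 d (0.96 without the shallow library) and 1.4 at 6 d (2.65-fold, adjusted p = 7.87e-11). Within 21% oxygen GAPDH fell by 0.45 on the log2 scale between 6 h and 6 d (adjusted p = 0.00499), a call that was lost after quantile normalization (a difference of -0.066, adjusted p = 0.77). With the compared groups only, the GAPDH call in 1% oxygen at 3 d was lost too (adjusted p = 0.0602).

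PGK1 makes ATP from bisphosphoglycerate, the first such step of the run. It was 388.4, 398.8 and 372.0 FPKM in 21% oxygen at 6 h, 424.3, 430.0 and 490.7 at 24 h, 391.4, 405.2 and 464.7 at 3 d and 405.0, 413.8 and 394.2 at 6 d. PGK1 in 5% oxygen was 367.6, 375.9 and 388.1 at 6 h, 418.4, 424.5 and 382.6 at 24 h, 1047, 1109 and 1108 at 3 d and 1045, 1067 and 1011 at 6 d. The 1% oxygen libraries gave PGK1 411.6, 402.2 and 429.7 at 6 h, 646.2, 650.8 and 641.3 at 24 h, 1183, 1314 and 936.3 at 3 d and 1444, 1499 and 1604 at 6 d. PGK1 was thus flat in 21% oxygen, stepped up between 24 h and 3 d in 5% and climbed over the whole course in 1%. It rose in 1% oxygen by a log2 difference of 0.53 ± 0.0844 (SE) at 24 h (1.44-fold, adjusted p = 0.000216), 1.43 at 3 d (1.57 without the shallow library) and 1.9 at 6 d (3.74-fold, adjusted p = 7.5e-16). PGK1 rose in 5% oxygen by 1.37 at 3 d (2.59-fold) and 1.36 at 6 d (2.57-fold).

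PGAM1, the mutase that moves the phosphate of phosphoglycerate, made smaller steps. It lay between 101.3 and 126.6 FPKM in all 12 libraries of 21% oxygen. PGAM1 in 5% oxygen was 161.3, 165.7 and 156.6 at 3 d and 147.4, 148.8 and 152.8 at 6 d. PGAM1 in 1% oxygen was 148.7, 149.6 and 135.5 at 24 h, 149.7, 153.8 and 167.5 at 3 d and 191.2, 192.8 and 203.6 at 6 d. All of these values were above every 21% library. The log2 differences were 0.5 ± 0.0661 (SE) in 5% oxygen at 3 d (1.42-fold, adjusted p = 1.37e-06) and 0.38 at 6 d. In 1% oxygen they were 0.3 at 24 h (adjusted p = 0.00255, or 0.081 with the compared groups only), 0.46 at 3 d (0.42 without the shallow library) and 0.76 at 6 d (1.7-fold, adjusted p = 1.28e-09).

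The enolases, which make phosphoenolpyruvate, behaved unlike each other. ENO1, the abundant form, had the smallest rise of the 10 at 3 d in both low levels and at 6 d in 1% oxygen, while at 6 d in 5% oxygen that of PGAM1 was smaller. It was 1711, 1645 and 1840 FPKM in 21% oxygen at 3 d and 1403, 1370 and 1318 at 6 d. ENO1 in 5% oxygen was 2259, 2276 and 2401 at 3 d and 1822, 1915 and 1754 at 6 d, and in 1% oxygen 1913, 2107 and 1923 at 3 d and 1954, 1947 and 2068 at 6 d. The 2 low levels stood above 21% at both times. ENO1 also fell by 0.23 on the log2 scale between 6 h and 6 d in 21% oxygen (adjusted p = 0.0252), a difference of 0.15 in the other direction after quantile normalization. That call was lost with no filter (adjusted p = 0.0582), after rescaling to TPM (0.238) and without replicate 1 or 2 of 6 h or replicate 2 or 3 of 6 d (up to 0.118). ENO1 rose by 0.42 ± 0.0684 (SE) in 5% oxygen at 3 d (1.34-fold, adjusted p = 3.52e-05) and at 6 d. In 1% oxygen it rose by 0.19 at 3 d (adjusted p = 0.0199, and 0.21 without the shallow library) and 0.54 at 6 d (1.46-fold, adjusted p = 1.37e-06). The 3 d call in 1% oxygen was lost without any of 3 libraries in turn, replicates 1 and 2 of 21% and replicate 2 of 1% oxygen (adjusted p up to 0.0943), and with the compared groups only (0.279). After quantile normalization ENO1 no longer passed in 5% oxygen at 3 d and 6 d (adjusted p = 0.0746 and 0.0742) or in 1% oxygen at 6 d (0.0635).

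ENO2, the enolase known from neurons, was a minor form with a large relative rise. It was 5.02, 4.601 and 4.61 FPKM in 21% oxygen at 6 h, 4.27, 4.40 and 4.07 at 24 h, 7.22, 5.73 and 5.42 at 3 d and 4.78, 7.34 and 6.86 at 6 d. ENO2 in 5% oxygen was 3.59, 3.80 and 4.92 at 6 h, 7.38, 5.99 and 4.89 at 24 h, 28.0, 28.3 and 33.2 at 3 d and 22.4, 27.4 and 21.4 at 6 d. The 1% oxygen libraries gave ENO2 4.33, 4.42 and 5.96 at 6 h, 11.8, 11.5 and 11.01 at 24 h, 40.2, 40.5 and 86.4 at 3 d and 29.96, 27.8 and 28.3 at 6 d. The value of 86.4 is that of the shallow library, and the 2 other libraries of the group were close to each other. ENO2 rose in 1% oxygen by a log2 difference of 1.24 ± 0.2 (SE) at 24 h (2.37-fold, adjusted p = 0.000234) and 2.04 at 6 d (4.1-fold). At 3 d the difference was 2.91 (adjusted p = 4.31e-12), or 2.55 without the shallow library. ENO2 rose in 5% oxygen by 2.12 at 3 d (4.34-fold) and 1.77 at 6 d (3.4-fold).

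PKM encodes pyruvate kinase, which makes pyruvate and ATP. It was 242.0, 244.0 and 256.8 FPKM in 21% oxygen at 3 d and 191.1, 204.8 and 202.4 at 6 d. PKM in 5% oxygen was 442.4, 439.9 and 937.6 at 3 d and 371.7, 403.9 and 372.1 at 6 d. In 1% oxygen it was 313.6, 309.3 and 278.5 at 24 h, 524.5, 517.4 and 459.4 at 3 d and 404.6, 402.8 and 412.3 at 6 d. Every one of these low-oxygen values exceeded the 21% libraries of its time, and replicate 3 of 5% oxygen at 3 d stood far above its fellow replicates. The log2 difference in 5% oxygen at 3 d was 1.19 ± 0.162 (SE, adjusted p = 2.4e-06), and 0.83 without that library. The log2 difference in 5% oxygen at 6 d was 0.94 (1.91-fold). In 1% oxygen PKM rose by 0.68 at 24 h (1.6-fold, adjusted p = 0.00465), 1.01 at 3 d (1.07 without the shallow library) and 1.02 at 6 d (2.03-fold, adjusted p = 4.99e-05). By the deposited transcript table the M2 form, PKM-202, held 94.1% of PKM and the M1 form, PKM-201, held 1.2%, with FPKM summed over all libraries.

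LDHA, the lactate dehydrogenase subunit that favours lactate formation, closed the run with one of the largest rises. It was 1094, 1083 and 1074 FPKM in 21% oxygen at 6 h, 1194, 1161 and 1397 at 24 h, 1045, 1089 and 1116 at 3 d and 1107, 1186 and 1115 at 6 d. LDHA in 5% oxygen was 1029, 947.8 and 1114 at 6 h, 1363, 1367 and 1268 at 24 h, 3642, 3692 and 3663 at 3 d and 3647, 3730 and 3558 at 6 d. The 1% oxygen libraries gave LDHA 1128, 1124 and 1223 at 6 h, 2488, 2546 and 2393 at 24 h, 3697, 4130 and 2309 at 3 d and 4424, 4678 and 4931 at 6 d. The 21% libraries stayed between 1045 and 1397 throughout, and the lowest 1% library from 24 h on, 2309, is the shallow one. LDHA rose in 1% oxygen by a log2 difference of 0.99 ± 0.118 (SE) at 24 h (1.98-fold, adjusted p = 3.94e-06), 1.6 at 3 d (1.85 without the shallow library) and 2.04 at 6 d (4.11-fold, adjusted p = 2.99e-13). LDHA rose in 5% oxygen by 1.76 at 3 d (3.38-fold, adjusted p = 5.94e-12) and 1.68 at 6 d (3.21-fold).

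The transcript table lists LDHA-218, whose start in GENCODE lies 1878 bases downstream of the most upstream start of the listed LDHA transcripts. Its values are Cufflinks estimates from reads of 25 bases and are described without a test. The more abundant entry named LDHA-205, from the upstream start, held 90.8% of the gene's FPKM summed over all libraries. A further entry of that name held 3.33%, and LDHA-218 held 0.811%. LDHA-218 was 26.1, 23.5 and 22.4 FPKM in 21% oxygen at 3 d. It was 9.36, 6.84 and 6.19 in 5% oxygen. In 1% oxygen it was 7.91 in replicate 2 and listed at or near 0 in the other libraries, among them the shallow one. It was thus low at 3 d where the gene as a whole was high. At 6 d it was 14.4, 9.59 and 20.4 in 21%, 3.86, 12.2 and 5.48 in 5% and 10.5, 14.6 and 8.52 in 1% oxygen, so that the levels overlapped. The window at this start is the LDHA window shown above with no ACGTG and 1 GCGTG, and a part of it in these values was not tested. ALDOA had 2 main starts, and at 6 d transcripts from both were higher in low oxygen. ALDOA-209, with 82% of the gene's FPKM, was 1203, 1217 and 1167 in 21%, 3633, 3724 and 3584 in 5% and 3850, 3591 and 3835 in 1% oxygen. ALDOA-206, with 17.4%, was 282.3, 341.9 and 302.5 in 21%, 790.1, 763.1 and 706.2 in 5% and 994.2, 1145 and 1153 in 1% oxygen. At 24 h ALDOA-206 in 5% oxygen, at 349.2, 377.3 and 305.6, overlapped the 21% libraries, at 364.0, 365.0 and 414.5, and at 3 d the shallow library gave 149.4, below the 21% libraries.

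**Figure D2:**
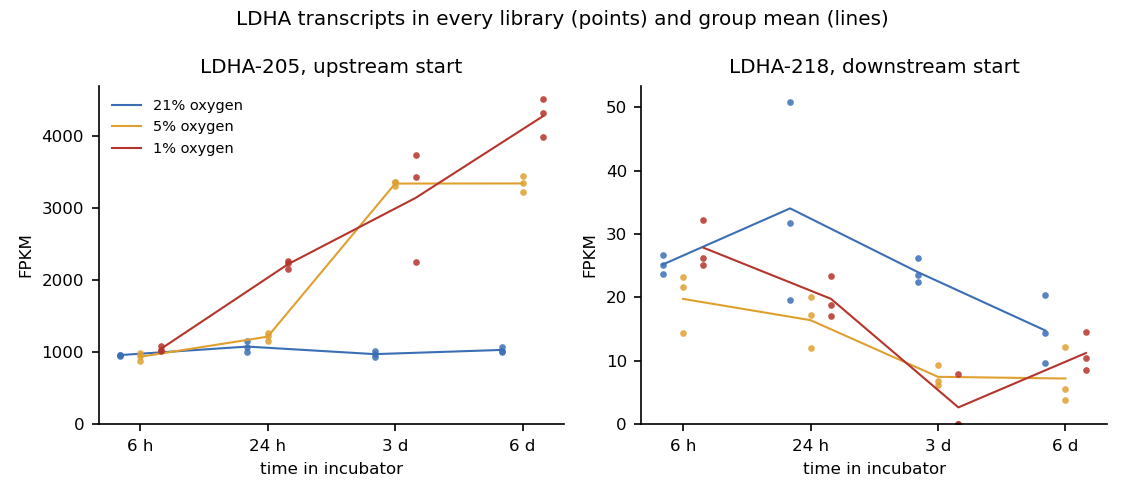
FPKM (vertical axes, from 0, on different scales) of LDHA-205 (its more abundant entry) from the upstream start and LDHA-218 from the downstream start against time, with points for libraries, lines for group means and blue, yellow and red for 21%, 5% and 1% oxygen. LDHA-205 follows the gene as a whole, while LDHA-218 in 5% and 1% oxygen lies below its 21% values at 3 d.

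Counted over the 10 genes, the comparison of 1% with 21% oxygen moved from none to all. At 6 h limma called 0 of the 10 and 0% of all genes, with 3 of the 10 and 351 of all 10625 at an unadjusted p under 0.05. The log2 differences at 6 h ran from 0.029 (ENO2) to 0.34 (PKM), and in 7 of the 10 the 3 libraries of 1% oxygen lay above those of 21%, as they did in 14.7% of all genes. At 24 h, 7 of the 10 had risen, against 6.56% of all genes called higher, or 16.6% in a fit without the shallow library. The remaining members were ENO1, TPI1 and GAPDH, with log2 differences of -0.009, 0.001 and 0.15. For ENO1 that became 0.51 after quantile normalization (adjusted p = 0.000325) and 0.45 after rescaling to TPM (0.00196), and it passed under both. The median of the 10 at 24 h was then 1.00 and 1.03. The median of all genes moved from -0.004 to -0.044 and 0.386. Rescaling to TPM multiplies all genes of a library by 1 factor, so the differences of TPI1 and GAPDH rose with it as well. At 3 d and 6 d all 10 had risen, against 16.9% and 5.84% of all genes called higher. Without the shallow library the counts were again 10, against 25.2% and 13.8%. The median log2 difference of the 10 was 0.16, 0.57, 1.21 and 1.55 at the 4 times, beside 0.047, -0.004, -0.32 and -0.029 over all genes. Averaged over times, all 10 had risen, from 0.23 (ENO1, adjusted p = 7.36e-06) to 1.76 (ALDOC, adjusted p = 2.43e-19), against 12.4% of all genes, or 23.1% without the shallow library. The differences varied with time in 10 of 10 by a moderated F test, against 40.3% of all genes, or 63.3% without the shallow library. PKM was nearest to the threshold of that test (adjusted p = 0.0464). The PKM call was lost with a pseudocount of 0.1 (adjusted p = 0.0533), with no filter (0.0854), with the replicate block (0.0521) and in 19 of 24 fits without 1 library (up to 0.118).

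In 5% oxygen most of the change came between 24 h and 3 d. At 6 h limma called 0 of the 10 and 0% of all genes, with 0 of the 10 and 280 of all 10625 at an unadjusted p under 0.05, and all 10 overlapped with 21%. At 24 h, 2 of the 10 passed, against 9.38% of all genes. ALDOC had risen, and ENO1 had fallen by 0.24 (adjusted p = 0.028), which turned to a rise of 0.31 after quantile normalization and a difference of 0.22 after rescaling to TPM. Without replicate 3 of 21% oxygen at 24 h only ALDOC passed. The ENO1 call was also lost without replicate 2 or 3 of 5% oxygen (adjusted p = 0.0643 and 0.207), and that of ALDOC without either of these or replicate 2 of 21% (up to 0.08). The median of the 10 at 24 h was -0.11, and 0.33 and 0.35 under those scalings, so that no common direction can be given for that time. At 3 d and at 6 d all 10 had risen, against 8.25% and 7.24% of all genes called higher. Without the shallow library, which belongs to neither group, the counts were again 10, against 15.7% and 15.3%. All 10 lay above 21% oxygen without overlap at both times, as did 20% and 23.6% of all genes. Their median log2 difference was 1.28 at 3 d and 1.16 at 6 d, beside -0.098 and -0.062 over all genes. Averaged over times, all 10 passed, against 9.21% of all genes called higher, from 0.15 (ENO1) to 1.27 (ALDOC). Without the shallow library that share of all genes was 18.2%. The differences varied with time in 10 of 10, against 14.5% of all genes, or 41.9% without the shallow library.

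**Figure D3:**
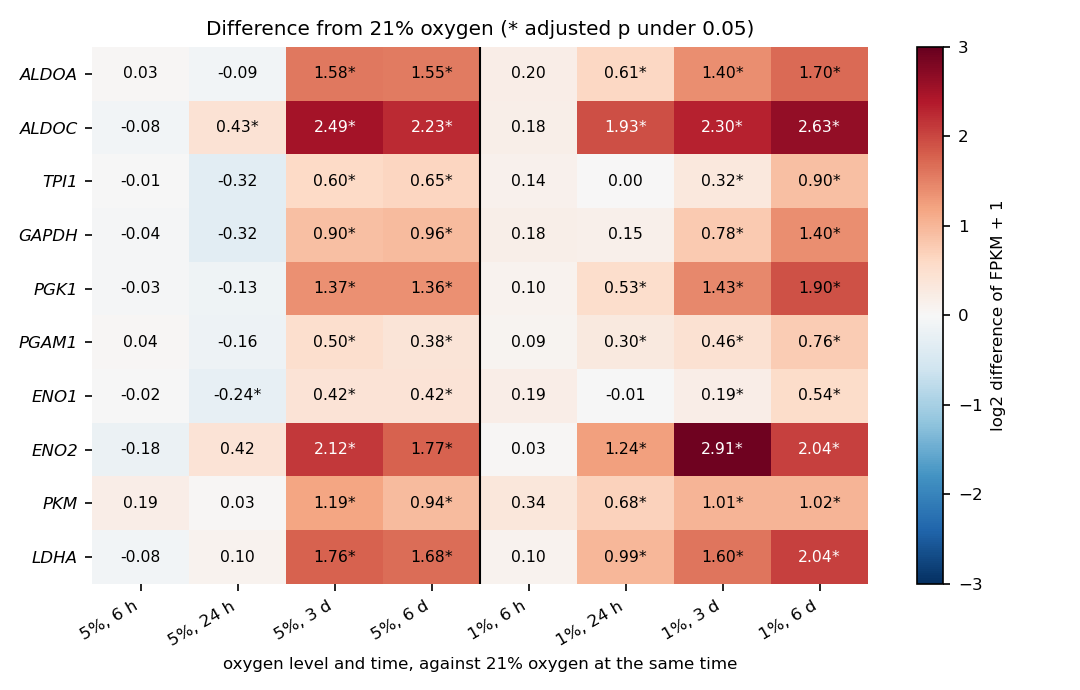
Log2 difference of FPKM + 1 from 21% oxygen at the same time, for the 10 genes (rows) in 5% (left) and 1% oxygen (right) at 4 times (columns), with colour and number giving the difference and an asterisk an adjusted p under 0.05. All columns of 3 d and 6 d carry asterisks in every row, no column of 6 h does, and 24 h carries 7 in 1% and 2 in 5% oxygen.

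Set directly against each other, 1% and 5% oxygen differed most clearly at 24 h. At 6 h, 0 of the 10 passed, against 0.0471% of all genes called, with 3 of the 10 at an unadjusted p under 0.05, and 567 of 10625 over all genes. At 24 h the 1% libraries lay above the 5% libraries for all 10 genes, as in 13.3% of all genes, and 7 had passed, against 0.668% of all genes called higher. The differences were 1.5 for ALDOC (2.83-fold, adjusted p = 3.75e-10), 0.89 for LDHA (adjusted p = 3.53e-05), 0.7 for ALDOA, 0.66 for PGK1, 0.83 for ENO2, 0.47 for GAPDH and 0.46 for PGAM1. PKM differed by 0.65 (adjusted p = 0.0558), TPI1 by 0.32 and ENO1 by 0.23 without passing. The ENO2 and GAPDH calls were the weakest: they were lost without any 1 of the 6 libraries compared (adjusted p = 0.0501 to 0.268 for ENO2 and 0.0649 to 0.161 for GAPDH), with no filter (0.0809 and 0.0674) and after quantile normalization (0.0948 and 0.219). ENO2 was also lost with the replicate block (0.0578), GAPDH with the compared groups only (0.0745), and ENO2 and PGAM1 after rescaling to TPM (0.205 and 0.146). The median of the 10 at 24 h was 0.66, and 0.68 and 0.66 after quantile normalization and rescaling to TPM.

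At 3 d the 2 low levels were close. ENO2 was higher in 1% oxygen by 0.79 (adjusted p = 0.00549), and by 0.43 without the shallow library (adjusted p = 0.0379). ENO1 and TPI1 were lower by 0.22 and 0.28 (adjusted p = 0.0158 and 0.0398). Neither passed without the shallow library (adjusted p = 0.0597 and 0.416), nor without replicate 3 of 5% oxygen (0.0678 and 0.0862), TPI1 was also lost without replicate 1 or 2 of 5% oxygen, and both signs turned after quantile normalization. These 3 of 10 stand against 36.6% of all genes called, and without the shallow library 2 passed, ENO2 and PGK1, both higher, against 16.6% of all genes called higher. For the other 7 genes, with the shallow library, the 95% intervals of the log2 difference reached from -0.52 (PKM) to 0.23 (PGK1). At 6 d, 4 of the 10 were higher in 1% oxygen, against 4.72% of all genes: PGK1 by 0.54 (adjusted p = 6.39e-05), PGAM1 by 0.39 (0.000201), GAPDH by 0.44 (0.00655) and ALDOC by 0.4 (0.0171). The ALDOC call was lost without replicate 1 or 3 of 5% or replicate 3 of 1% oxygen (adjusted p up to 0.081). LDHA differed by 0.36 (adjusted p = 0.0579). After quantile normalization or rescaling to TPM, 1 of the 10 passed at 6 d, PGK1. Averaged over times, 7 of the 10 were higher in 1% oxygen, against 2.89% of all genes, and PKM, TPI1 and ENO1 did not pass (adjusted p = 0.258, 0.278 and 0.195). Without the shallow library 10.1% of all genes were called higher.

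**Figure D4:**
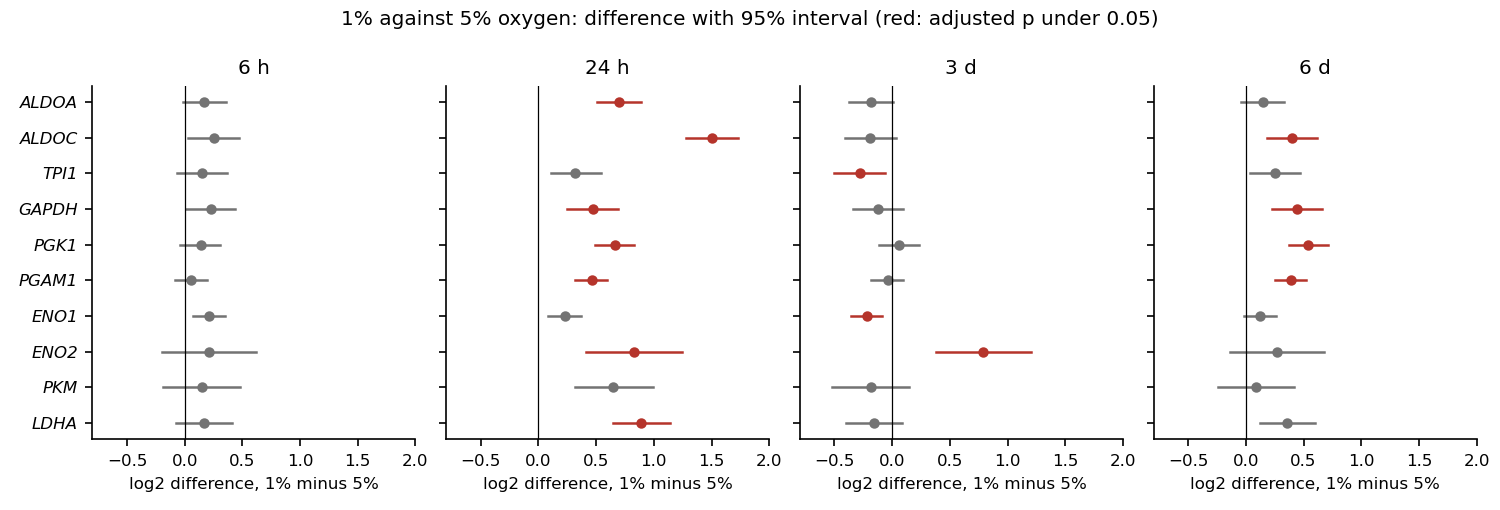
Log2 difference of FPKM + 1 between 1% and 5% oxygen for the 10 genes at 4 times, with 95% intervals, in red where the adjusted p was under 0.05. All 10 points lie to the right of 0 at 24 h, and at 3 d most intervals include 0.

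In 21% oxygen itself, time moved few of the 10. Against 6 h, 0 of the 10 passed at 24 h (0.132% of all genes), with 6 of the 10 and 949 of 10625 genes at an unadjusted p under 0.05, and 1 passed at 3 d, ALDOC, which was higher (3.42% of all genes). At 6 d, 3 of the 10 passed against 11.1% of all genes: ALDOC higher, GAPDH and ENO1 lower. Both lower calls depended on the scaling: after quantile normalization GAPDH no longer passed and the sign of ENO1 turned, as given with each gene.

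The balance between forms of the same enzyme moved as well, by shares of summed FPKM within a library, which a single scaling factor per library, such as rescaling to TPM, does not change. LDHB, the subunit that favours the return of lactate to pyruvate, was 1400, 1349 and 1442 FPKM in 21% oxygen at 3 d, 937.0, 906.9 and 1018 in 5% and 666.0, 686.8 and 466.9 in 1% oxygen. LDHA made up 43.2% to 45.7% of LDHA and LDHB together in the group means of 21% oxygen. In 5% oxygen its share was 44.4% ± 0.95 (SD, n = 3) at 6 h, 50.8% ± 0.739 at 24 h, 79.4% ± 1.03 at 3 d and 78.4% ± 0.383 at 6 d. In 1% oxygen it was 44% ± 0.262, 66.5% ± 0.508, 84.6% ± 1.29 and 78.7% ± 0.273 at the 4 times. At 24 h the 5% libraries, at 50.1%, 51.5% and 50.8%, were above the 21% libraries, at 44.1%, 43.5% and 41.9%.

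The minor forms gained too. ALDOC was 1.51% ± 0.0606 (SD, n = 3) of the aldolases in 21% oxygen at 24 h and 4.08% ± 0.317 at 6 d, 6.44% ± 0.0909 in 5% and 7.6% ± 0.057 in 1% oxygen at 6 d. ENO2 was 0.459% ± 0.106 of ENO1, ENO2 and ENO3 in 21% oxygen at 6 d, 1.27% ± 0.118 in 5% and 1.41% ± 0.0811 in 1% oxygen. At 3 d in 1% oxygen the ENO2 share was 2.05%, 1.87% and 4.27%, the last in the shallow library. Averaged over times, the LDHA share was higher than in 21% oxygen by 24.4 percentage points in 1% and 19.2 in 5% oxygen. By exact two-sided permutation of libraries within times (160000 assignments, 9 comparisons) the adjusted p was 0.000337 for both. The ALDOC share was higher by 2.13 and 1.42 points and the ENO2 share by 0.922 and 0.459 points (adjusted p = 0.000478 in 1% and 0.000514 in 5% oxygen for both shares, same test). Between 1% and 5% oxygen the 3 shares differed by 5.22, 0.715 and 0.463 points for LDHA, ALDOC and ENO2 (adjusted p = 0.00251, 0.00208 and 0.000514, same exact permutation test). Without the shallow library the ENO2 differences were 0.73 points from 21% and 0.271 points from 5% oxygen.

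**Figure D5:**
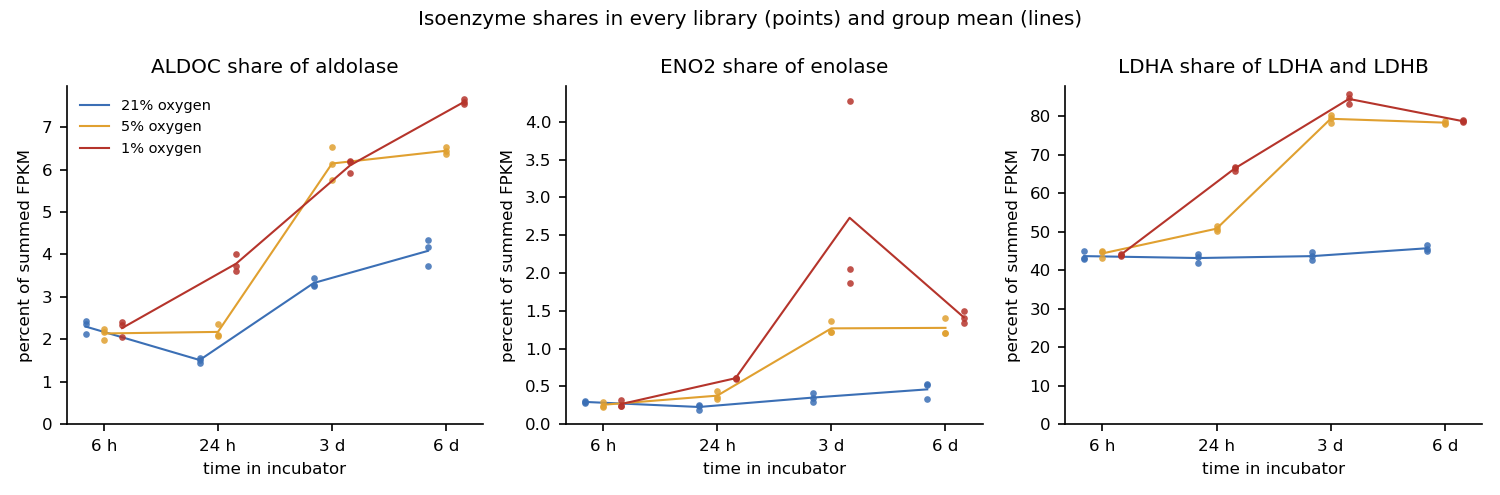
Share of summed FPKM (percent, from 0) held by ALDOC among the aldolases, ENO2 among the enolases and LDHA among LDHA and LDHB, against time, with points for libraries, lines for group means and blue, yellow and red for 21%, 5% and 1% oxygen. The LDHA share stays near 44% in 21% oxygen and reaches about 79% in both low levels at 6 d.

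Genes around the run were read from lists by function. For comparison, averaged over times 12.4% of all genes had risen and 19% had fallen in 1% oxygen, and 9.21% and 15% in 5% oxygen. Without the shallow library these shares were 23.1% and 25.9%, and 18.2% and 30.2%. The counts of the lists include that library. Of 14 genes of glucose uptake and upper glycolysis, 11 could be tested, and averaged over times 8 had risen and 1, PFKM, had fallen in 1% oxygen, with a median log2 difference of 0.73. In 5% oxygen the counts were the same, 8 and 1, with a median of 0.45. PFKFB4, which makes the activator of phosphofructokinase, was 7.3, 9.78 and 9.81 FPKM in 21% oxygen at 6 d, 36.02, 37.8 and 32.1 in 5% and 74.0, 65.4 and 69.1 in 1% oxygen. Its averaged log2 difference in 1% oxygen was 1.84 ± 0.0916 (SE, adjusted p = 6.42e-15). The hexokinase HK2 differed by 0.91 and the glucose transporters SLC2A3 and SLC2A1 by 0.88 and 0.81.

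Of 15 other forms of the same enzymes, 8 could be tested, of which 3 had risen and 1, LDHB, had fallen in 1% oxygen. LDHB fell by 0.41 on the log2 scale (adjusted p = 4.51e-07). The list's median was -0.004. PKLR, the pyruvate kinase of liver and red cells, was 17.3, 16.3 and 17.7 FPKM in 21% oxygen at 6 d, 34.5, 36.5 and 34.2 in 5% and 63.1, 61.1 and 62.1 in 1% oxygen, an averaged difference of 0.53. The others that rose were LDHAL6A (1.04) and PGAM4 (0.33), which resemble LDHA and PGAM1 in sequence, so that short reads may have been shared between them and their values are uncertain.

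Of 18 genes of side branches and of the fates of pyruvate and lactate, 14 could be tested, and 4 had risen and 4 had fallen in 1% oxygen, with a median of -0.11. The genes that rose include PDK1, which switches off pyruvate dehydrogenase, with 4.55, 6.59 and 6.62 FPKM in 21% oxygen at 6 d, 23.6, 26.5 and 25.5 in 5% and 57.5, 59.0 and 70.2 in 1% oxygen. Its averaged difference was 2.08 ± 0.0993 (SE, adjusted p = 2.42e-15). PDK3, a kinase of the same kind, differed by 0.78. SLC16A3, the exporter of lactate known from glycolytic cells, differed by 1.48 and reached 8.22, 7.63 and 5.36 FPKM in 1% oxygen at 6 d from 0.83, 1.15 and 1.56 in 21%. MPC1, which lets pyruvate into mitochondria, fell by 0.57 (adjusted p = 1.71e-07), the direction opposite to the 10 genes.

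All 8 hypoxia reference genes had risen in 1% and in 5% oxygen averaged over times. EGLN3 was 8.46, 11.7 and 12.3 FPKM in 21% oxygen at 6 d, 57.8, 58.6 and 53.4 in 5% and 86.3, 89.7 and 89.3 in 1% oxygen. CA9 was listed at 0 in every library of 21% oxygen up to 3 d and reached 28.1, 20.03 and 20.9 FPKM in 1% oxygen at 6 d. The averaged differences of ANKRD37 and P4HA1 were 2.26 and 1.72. At 24 h in 5% oxygen 3 of these 8 had risen, against 2.39% of all genes called higher. Of the 10 glycolytic genes 2 passed there in either direction, against 9.38% of all genes. Of 8 K562 markers, 4 had risen in 1% oxygen averaged over times, all of them globin genes: HBZ (1.14), HBE1 (0.85), HBG2 (0.54) and HBG1 (0.36). The markers did not keep 1 direction over time. In 1% oxygen at 24 h 1 was higher and 4 were lower, against 6.56% and 9.66% of all genes. At 3 d 4 were higher and at 6 d 6 were, against 16.9% and 5.84% of all genes called higher. In 21% oxygen itself 4 of the 8 were lower at 3 d than at 6 h, against 1.19% of all genes. At 6 d 5 were lower and 1 higher, against 3.24% and 7.89% of all genes.

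The 10 genes followed a shared course across the 12 group means. The correlation of each with the mean of the other 9 (Pearson's r, across 12 groups that share libraries' scaling, as a description) ran from 0.8 for ENO1 to 0.992 for ALDOA. Among 7210 genes outside the lists with at least 5 FPKM on average, the 5 most like their mean course were C4orf3 (r = 0.977), BNIP3L (0.973), PPME1 (0.966), SLC6A8 (0.958) and ARHGEF19 (0.958). BNIP3L, a mitophagy receptor, was 23.6, 24.5 and 21.6 FPKM in 21% oxygen at 24 h, 34.3, 28.4 and 31.6 in 5% and 63.6, 67.3 and 66.7 in 1% oxygen. At 3 d it was 23.5, 24.3 and 25.6 in 21%, 126.0, 134.6 and 158.7 in 5% and 184.0, 182.9 and 121.8 in 1% oxygen. Like LDHA, it was higher in 1% than in 5% oxygen at 24 h and higher in both than in 21% at 3 d. BNIP3L was picked for its likeness to the mean course, so this likeness is not a separate result.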

How the data were processed

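Libraries were polyA-selected and made by a Smart-seq2 style protocol, with paired reads, per the labels' protocols. The authors made the deposited FPKM values of genes and transcripts with TopHat and Cufflinks (Cuffnorm), per the submitters' processing notes. Tool versions, build and gene models were not given in the sources used here. No counts are given, so depth and counting error are unknown.

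Groups came from the labels. Values were taken as log2(FPKM + 1), that is with a pseudocount of 1, which understates changes of weakly expressed genes. Genes with a mean of at least 1 FPKM entered 1 limma fit (limma 3.58.1, R 4.3.3, trended prior) of 12 group means over 36 libraries, with two-sided moderated tests, Benjamini-Hochberg adjustment over 10625 genes and a threshold of 0.05. Isoenzyme shares were compared by exact permutation within times (Python 3.11.15). The procedure was tested on simulated data. Figures were drawn with matplotlib 3.10.9.

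The 10 members and all lists were chosen with earlier results of these data known. All members are named; of each other list, up to 4 genes with the largest averaged difference in 1% oxygen among those passing, and LDHB, PFKFB4, PDK1 and SLC16A3; and the 5 genes outside the lists most correlated with the members' mean course. Promoter windows are RefSeq's (GRCh38.p14) and were matched by symbol for 10 of 10 members; transcript names and starts are those of GENCODE on the same build, matched by RefSeq identifier. Alternatives were a pseudocount of 0.1, no filter, a filter at 5 FPKM, quantile normalization, rescaling to TPM, array weights, the compared groups only, a replicate block and leaving out each library.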

Additional observations from a re-analysis of the deposited data

Results flagged for a closer look

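For each of the 10 genes, the difference between low and 21% oxygen was not the same at the 4 times, by a moderated F test of the limma fit with adjustment over all genes, and this difference between times is what brought each result here. For 1% against 21% oxygen the adjusted p was 4.7e-12 for ALDOC, 9.46e-12 for PGK1, 1.36e-09 for ALDOA, 4.58e-09 for LDHA, 6.91e-08 for ENO2 and 3.02e-07 for GAPDH. It was 2.01e-05 for PGAM1, 0.000139 for TPI1, 0.000511 for ENO1 and 0.0464 for PKM. For 5% against 21% oxygen it was 2.44e-13 for ALDOC, 5.42e-12 for ALDOA, 7e-12 for PGK1, 2.43e-10 for LDHA, 1.06e-07 for GAPDH and 9.86e-07 for ENO2. It was 8.32e-06 for ENO1, 1.61e-05 for PGAM1, 2.37e-05 for TPI1 and 0.000774 for PKM. The 2 sets of tests share the libraries of 21% oxygen. In 5% oxygen 0 of the 10 passed at 6 h and all 10 at 3 d, while in 1% oxygen 7 of the 10 had already passed at 24 h. Over all genes, 40.3% varied with time in 1% and 14.5% in 5% oxygen, and 63.3% and 41.9% without the shallow library. The shallow library of 1% oxygen at 3 d enters the first set, and PKM there was the member closest to the threshold. The PKM result no longer passed with a pseudocount of 0.1 (adjusted p = 0.0533), with no filter (0.0854), with the replicate block (0.0521) or in 19 of 24 fits without 1 library (up to 0.118). After quantile normalization the variation of ENO1 with time no longer passed in 1% or 5% oxygen (adjusted p = 0.163 and 0.749), nor did that of GAPDH in 5% oxygen (0.165). After rescaling to TPM it was lost for ENO1 in both (0.253 and 0.0854) and for PGAM1 in 5% oxygen (0.556).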

How the results depend on the processing

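Of 114 values of single genes that passed, 859 of 912 refits under another setting gave the same direction and side of the threshold, 46 no longer passed and 7 changed sign. Of 1604 refits without 1 library, 1549 were the same and 55 no longer passed. Among the 86 values that had not passed, 70 of 688 refits under another setting and 22 of 646 without 1 library changed sign. The counts of members passing at 3 d, at 6 d and averaged, for 1% and 5% against 21% oxygen, and for 1% against 21% at 6 h and 24 h, stayed within 1.5 times of the main count under every setting. That limit still let single calls change. With the compared groups only, ALDOA and PGAM1 were lost in 1% oxygen at 24 h, and ENO1, GAPDH and TPI1 at 3 d. After quantile normalization ENO1 was lost in 1% oxygen at 6 d and in 5% oxygen at 3 d and 6 d. ENO1 was gained in 1% oxygen at 24 h after quantile normalization and after rescaling. Without 1 library in turn the counts were 8 to 10 (1% at 3 d), 10 to 10 (1% at 6 d, averaged, and 5% at 3 d, 6 d and averaged), 7 to 7 (1% at 24 h) and 0 to 0 (6 h, for all 3 pairs of levels). The variation with time was called for 9 to 10 members in 1% and 10 to 10 in 5% oxygen.

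The counts with least support were those at 24 h in 5% oxygen, between the low levels and within 21% oxygen. Percentages beside these counts are of all genes called under the same setting. For 5% against 21% at 24 h, 2 members passed (9.38%). The counts were 1 with no filter (3.1%), 4 with a filter at 5 FPKM (15.7%) and 0 with the compared groups only (0.00941%). After quantile normalization 6 passed, all higher (1.87% called higher), and after rescaling to TPM 5 did, all higher (16.1% called higher). With array weights 5 passed (32.9%), and without 1 library 0 to 5 (5 and 28.2% without the shallow library). For most of these the cause was not tested. Rescaling moved the median of all genes there from -0.024 to 0.364. It moved the share of higher among all calls from 25.5% to 99.3%. In 1% oxygen at 24 h that share moved from 40.5% to 62.8% after quantile normalization and 96.3% after rescaling. For 1% against 5% the counts were 3 at 6 h with array weights (4.31%, and 0.0471% in the main fit). At 24 h they were 5 to 9 without 1 library (9 and 2.95% without the shallow library), and averaged 7 to 8. At 3 d they were 0 with array weights (19.1%), 0 with the compared groups only (0%, fewer samples) and 1 to 7 without 1 library. At 6 d they were 1 after quantile normalization (11.6%), 1 after rescaling (5.45%) and 7 with array weights (41.9%). Without 1 library they were 3 to 6 at 6 d (6 and 27.6% without the shallow library). The main fit called 0.744% at 24 h, 36.6% at 3 d and 8.61% at 6 d. In 21% oxygen against 6 h, 1 member passed at 24 h after quantile normalization (0.301%), after rescaling (0.226%) and with array weights (2.7%). Without 1 library 0 to 1 did. At 3 d the counts were 5 after quantile normalization (7.98%), 2 after rescaling (4.32%) and 3 with array weights (29%). They were 2 with the compared groups only (17.4%) and 1 to 2 without 1 library. At 6 d they were 6 with array weights (40.4%), 5 with the compared groups only (31.6%) and 2 to 4 without 1 library (4 and 29.3% without the shallow library). The main fit called 0.132% at 24 h, 4.6% at 3 d and 11.1% at 6 d. The array weights were estimated with a warning that the iterations had not converged.

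Signs turned for few called values. ENO1 in 5% against 21% oxygen at 24 h was 0.31 after quantile normalization and 0.22 after rescaling. In 1% against 5% at 3 d ENO1 was 0.069 and 0.11 and TPI1 0.013 and 0.046 under the same settings, and ENO1 at 6 d against 6 h in 21% oxygen was 0.15 after quantile normalization. In 1% against 21% oxygen at 24 h neither had passed. ENO1 there was 0.51 after quantile normalization (adjusted p = 0.000325) and 0.45 after rescaling (0.00196), and passed under both. It was 0.091 with array weights, and -0.063 to 0.081 without 1 library. TPI1 there was -0.067 to 0.13 without 1 library.

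Leaving out 1 library moved the averaged share of LDHA between 24.2 and 24.6 points (1% against 21%), 19 and 19.3 (5% against 21%) and 5.07 and 5.39 (1% against 5%), that of ALDOC between 2.09 and 2.17, 1.37 and 1.47, and 0.668 and 0.765, and that of ENO2 between 0.73 and 1.03, 0.442 and 0.468, and 0.271 and 0.57. Replicate numbers did not pair libraries: in 0 of 12 pairs of groups were all 3 same-number correlations over 0.1, and in 1 each library correlated best with its own number. With the replicate block every count of members stayed within 1.5 times, ENO2 in 1% against 5% at 24 h (adjusted p = 0.0578) and the variation of PKM with time in 1% oxygen (0.0521) no longer passed. With no counts, precision at low FPKM, as for ENO2 near 4 FPKM, cannot be stated beyond the replicate spread.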
